A study of Mus musculus with 4 samples.

Results

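The endoplasmic reticulum (ER) folds and quality-controls secreted proteins, and 36 genes of that machinery and of the unfolded protein response were followed in gonadotropes, the pituitary cells that secrete luteinizing hormone and follicle-stimulating hormone. The members were listed by symbol: chaperones, disulfide isomerases, degradation and translocation factors, stress sensors and the ATF4 branch. They matched 37 of the 54532 rows of the table, because Ddit3 had a second row with no count in any library. All 36 genes were tested. The 4 poly(A) RNA-seq libraries came from sorted gonadotropes of male mice of mixed strain, 10 to 12 weeks old: 2 were labelled control and 2 carried a conditional knockout of the transcription factor gene Gata2 (cKO). The series title calls the knockout gonadotrope-specific. Its Cre driver, the floxed allele, the alleles of the controls and the marker used for sorting are not stated in the labels used here, nor is whether each library is 1 animal or a pool. The series' design text speaks of whole pituitaries, and the sample labels of purified gonadotropes were followed.

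The ER lumen is oxidising and rich in calcium, and a nascent chain that enters through the SEC61 translocon is held by chaperones such as BiP (Hspa5), by the lectins calnexin and calreticulin with the oxidoreductase ERp57 (Pdia3), and by other disulfide isomerases. Chains that do not fold are sent back to the cytosol by the SEL1L-HRD1 complex for degradation. Unfolded chains activate IRE1 (Ern1), which splices Xbp1 mRNA, ATF6, which is cleaved in the Golgi into a transcription factor, and PERK (Eif2ak3), which phosphorylates eIF2 alpha and so lets ATF4 be translated. ATF6 and spliced XBP1 raise chaperone and degradation genes, while ATF4 raises genes of amino acid supply, the phosphatase subunit Ppp1r15a and the factor CHOP (Ddit3). Gonadotropins are disulfide-rich glycoprotein dimers that are assembled in the ER. Splicing of Xbp1, cleavage of ATF6, phosphorylation and translation are not measured by counts per gene.

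Known response elements were searched in the promoters of the members, and the sequences below show the matches, which were found in part of the chaperone and isomerase genes and in part of the ATF4 branch. Promoter windows from RefSeq on build GRCm38.p6, from 250 bases before to 50 after the start site, were found for 31 of the 36 symbols. The ER stress element (ERSE), searched on both strands as CCAAT and CCACG with 9 bases between them, is bound by NF-Y at CCAAT and by ATF6 or XBP1 at CCACG. It was in the windows of 9 of 31 members and of 0.137% of the 27025 genes with a window. In 1 of these members, Hsp90b1, it occurred at 2 places. Each match is printed 5′ to 3′ in the orientation of the motif, with the fixed letters in capitals, after its position from the start site and the strand relative to the gene.
Hspa5, -65 to -47, same strand: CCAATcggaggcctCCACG
Hsp90b1, -212 to -194, same strand: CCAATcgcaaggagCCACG
Hsp90b1, -107 to -89, opposite strand: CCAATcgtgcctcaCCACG
Calr, -162 to -144, opposite strand: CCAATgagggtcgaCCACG
Canx, -145 to -127, same strand: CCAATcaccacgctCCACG
Dnajc3, -105 to -87, same strand: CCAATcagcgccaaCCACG
Creld2, -126 to -108, opposite strand: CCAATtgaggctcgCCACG
Pdia6, -98 to -80, same strand: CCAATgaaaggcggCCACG
Syvn1, -44 to -26, same strand: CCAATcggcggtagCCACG
Derl3, -156 to -138, opposite strand: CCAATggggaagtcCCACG

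Of the 14 chaperone and isomerase genes with a window 7 held the element, and of the 6 ATF4 branch genes 0. The shorter ERSE-II, searched as ATTGG and CCACG with 1 base between them, was in the windows of Herpud1 (-52 to -42) and Dnajb11 (8 to 18), against 0.0444% of genes. The XBP1 element TGACGTGG was in 0 of 31 and 0.714% of genes. The core shared by CHOP and ATF4 composite elements, TGATGNAA, was in the windows of Chac1, Asns, Trib3 and Herpud1 and of 4.51% of genes, so that 3 of 6 ATF4 branch genes and 0 of 14 folding genes held it. The GATA factor core AGATAA was in the windows of 4 of 31 members (Derl2, Ssr1, Ddit3 and Ppp1r15a) and of 12.7% of genes, a share near the background. A match of letters describes the window and is no measurement of binding. The members were listed as genes of ER folding and of this response. Their shares beside those of all genes are therefore description and were not tested.

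**Figure D1:**
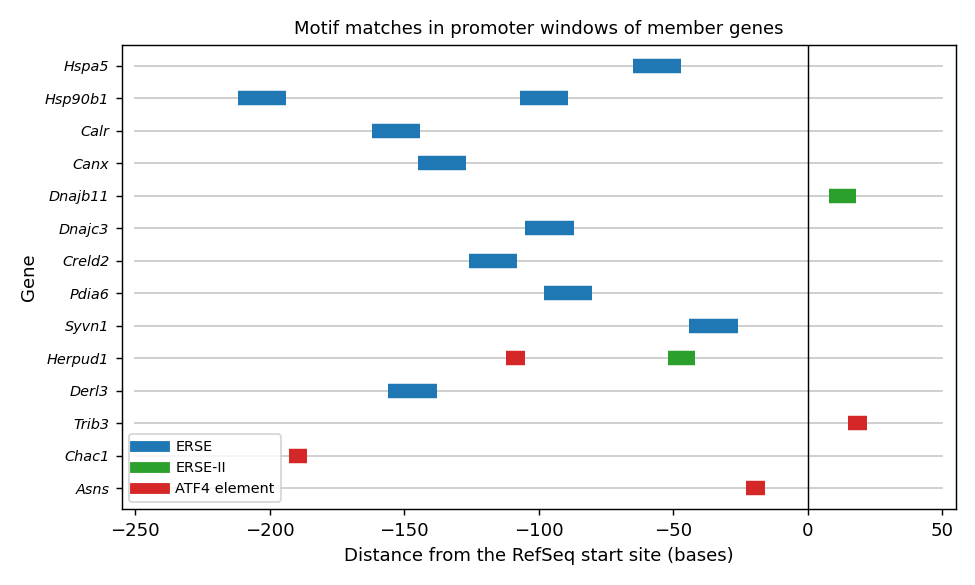
Positions of ERSE, ERSE-II and ATF4 element matches in promoter windows of member genes, in bases from the RefSeq start site. Each row is 1 gene, the grey line is its window, and coloured bars are matches on either strand. Blue ERSE bars sit on 9 genes, all before the start site, and red ATF4 element bars on 4.

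The 250 bases before the start site are shown for 3 folding genes with the ERSE, for Pdia3, which had the smallest p of the folding genes and no exact match, and for 2 ATF4 branch genes with the TGATGNAA core, 5′ to 3′ on the gene's strand. Capitals mark the fixed letters of those motifs, which read as the reverse complement where the match is on the opposite strand (Calr, Creld2 and Chac1).
Hspa5 (chr2:34771840-34772089, plus strand): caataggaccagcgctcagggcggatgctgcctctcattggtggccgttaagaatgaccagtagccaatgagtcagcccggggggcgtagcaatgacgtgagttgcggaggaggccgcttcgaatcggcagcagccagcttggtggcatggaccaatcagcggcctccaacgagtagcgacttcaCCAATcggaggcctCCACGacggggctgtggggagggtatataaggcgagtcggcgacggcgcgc
Calr (chr8:84846932-84847181, minus strand): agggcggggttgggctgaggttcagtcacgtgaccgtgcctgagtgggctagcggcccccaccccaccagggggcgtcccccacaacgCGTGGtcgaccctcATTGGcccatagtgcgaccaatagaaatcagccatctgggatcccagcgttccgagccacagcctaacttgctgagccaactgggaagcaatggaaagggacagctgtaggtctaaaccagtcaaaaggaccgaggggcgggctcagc
Creld2 (chr15:88819396-88819645, plus strand): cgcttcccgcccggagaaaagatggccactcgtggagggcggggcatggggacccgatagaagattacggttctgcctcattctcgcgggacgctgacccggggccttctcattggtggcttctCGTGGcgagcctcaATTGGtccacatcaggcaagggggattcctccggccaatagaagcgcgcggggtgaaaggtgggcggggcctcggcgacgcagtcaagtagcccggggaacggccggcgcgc
Pdia3 (chr2:121413652-121413901, plus strand): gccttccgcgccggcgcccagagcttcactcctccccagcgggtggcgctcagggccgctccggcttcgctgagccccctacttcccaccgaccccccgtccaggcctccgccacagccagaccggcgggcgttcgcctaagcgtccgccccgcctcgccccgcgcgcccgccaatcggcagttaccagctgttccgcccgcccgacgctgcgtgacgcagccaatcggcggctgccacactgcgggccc
Chac1 (chr2:119350992-119351241, plus strand): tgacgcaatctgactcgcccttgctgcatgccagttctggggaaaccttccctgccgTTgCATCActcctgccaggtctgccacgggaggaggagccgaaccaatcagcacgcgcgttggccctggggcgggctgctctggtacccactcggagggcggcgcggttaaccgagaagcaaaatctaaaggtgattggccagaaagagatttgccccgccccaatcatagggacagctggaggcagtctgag
Asns (chr6:7693210-7693459, minus strand): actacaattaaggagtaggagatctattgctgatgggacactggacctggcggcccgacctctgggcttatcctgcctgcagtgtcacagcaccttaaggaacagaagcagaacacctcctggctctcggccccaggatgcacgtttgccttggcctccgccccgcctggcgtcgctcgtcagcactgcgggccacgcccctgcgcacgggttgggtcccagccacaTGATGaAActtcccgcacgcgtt

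The libraries held 10646909 and 21135301 estimated counts (controls) and 15541553 and 18362182 (cKO). Levels are counts per 1000000 (CPM) scaled by TMM factors, and log2 fold changes are cKO minus control from edgeR's quasi-likelihood test. Gata2 counted 537 and 526 CPM in control and 221 and 214 in cKO libraries and fell (log2 fold change -1.29, SE 0.14, edgeR adjusted p = 0.0473), in a count over the whole gene. Control replicate 1 correlated less with the other libraries (Pearson's r over genes, on log2 CPM, 0.841 to 0.889) than those did with each other (0.902 to 0.928). The 7 gonadotrope markers, all with negative values, summed to 15185 and 13763 CPM in control and 6763 and 8025 in cKO libraries. The 6 markers of corticotropes and melanotropes, also all with negative values, summed to 7534 and 10214 CPM in control and 6343 and 7512 in cKO libraries, so transcripts of other pituitary cells were present. In such samples fewer cells of a type and less RNA per cell cannot be told apart.

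No member passed the threshold, an adjusted p under 0.05 over the 17349 genes tested, where 0.0576% of genes did. The edgeR test called 0 of 36 members (smallest adjusted p 0.385, Pdia3), while 9 had an unadjusted p under 0.05 (7.04% of all genes had one), 8 of them lower and 1 higher in cKO, against 3.88% and 3.15% of all genes. DESeq2 called 7 members, with 5.77% of genes called, namely Calr, Creld2, P4hb, Pdia3, Erp44 and Sel1l with negative and Chac1 with a positive log2 fold change. For limma-voom the called members were Calr, Pdia3 and Sel1l, with 1.48% of genes called, and edgeR's newer quasi-likelihood method called 0, with 0.271%. The values that follow are therefore differences between 4 libraries that edgeR did not separate from the spread between libraries.

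The folding genes and the ATF4 branch stood on opposite sides of zero. Of the 16 folding genes (11 chaperones and co-chaperones, 5 isomerases) 15 had a log2 fold change below 0, with a median of -0.31, and all 6 genes of the ATF4 branch had one above 0, with a median of 0.29. Over all genes tested 47.6% were below 0 and the median was 0.03. In 12 of 16 folding genes both cKO libraries lay below both controls, against 19.3% of all genes, and in 3 of 6 ATF4 branch genes both lay above, against 19.7%. All 16 folding genes had a mean of at least 40 CPM. Of the 6 ATF4 branch genes 4 reached that level, and Chac1 and Trib3 did not. Among the 5365 genes at that level 44.2% were below 0, and the median was 0.04. Both cKO libraries lay below both controls in 20.0% of them and above in 25.6%. The members were chosen with earlier results of these data known, and the 2 medians were given no test.

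The same genes were also read in each of the 4 libraries. This restates the medians above by library and is no separate support for them. After each gene's control mean was subtracted from its log2 CPM, the median of the folding genes was -0.05 in control replicate 1 and 0.05 in control replicate 2, against -0.29 in cKO replicate 1 and -0.32 in cKO replicate 2. The ATF4 branch had medians of 0.08 and -0.08 for the controls and of 0.22 and 0.14 for the cKO libraries, in the same order. The ATF4 branch minus the folding genes thus stood at 0.13 and -0.13 for the controls and at 0.51 and 0.46 for the cKO libraries. Both cKO libraries lay outside the range of the controls for each group. Over all genes tested the medians were -0.08 and 0.08 for the controls. They were 0.04 and 0.07 for the cKO libraries, within the range of the controls. Subtracting the control mean places the controls on either side of 0 by construction, so the gap between the controls shows their spread. The ATF4 branch median was 0.14 without cKO replicate 1, and 5 of 6 members were then above 0. Without control replicate 2 the median of all genes moved to 0.249, with 40% of genes below 0. The ATF4 branch then had a median of 0.23 with 5 of 6 genes above 0, no higher than genes in general, and the folding genes one of -0.29 with 14 of 16 below 0.

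**Figure D2:**
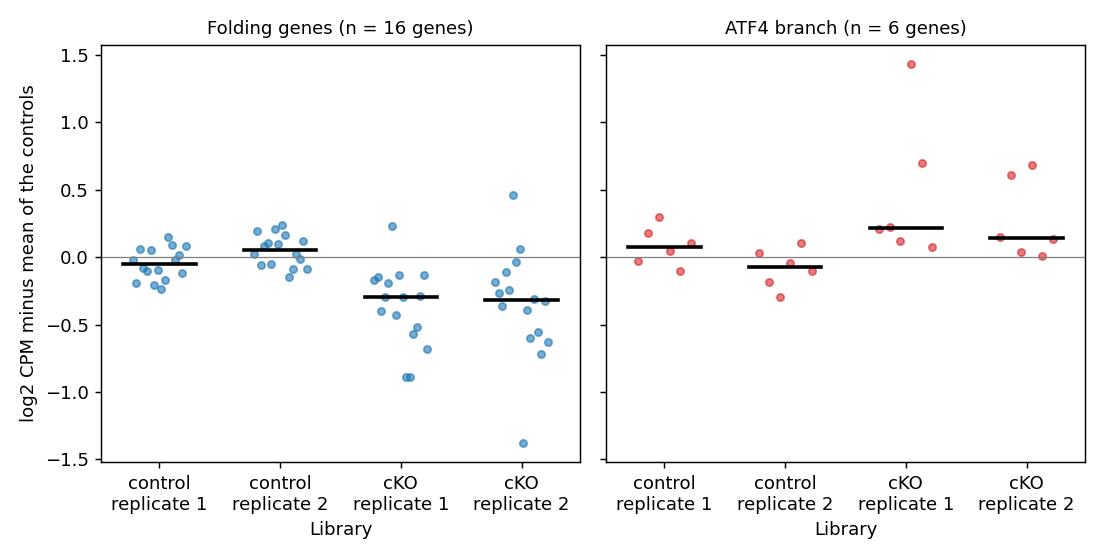
The log2 CPM of each gene minus its mean in the controls (y axis), by library (x axis), for the 16 folding genes (left, blue) and the 6 ATF4 branch genes (right, red). Points are genes and black bars are medians. The folding medians sit at -0.29 and -0.32 in the cKO libraries, and the ATF4 branch medians at 0.22 and 0.14, with Chac1 as the top point in cKO replicate 1.

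**Figure D3:**
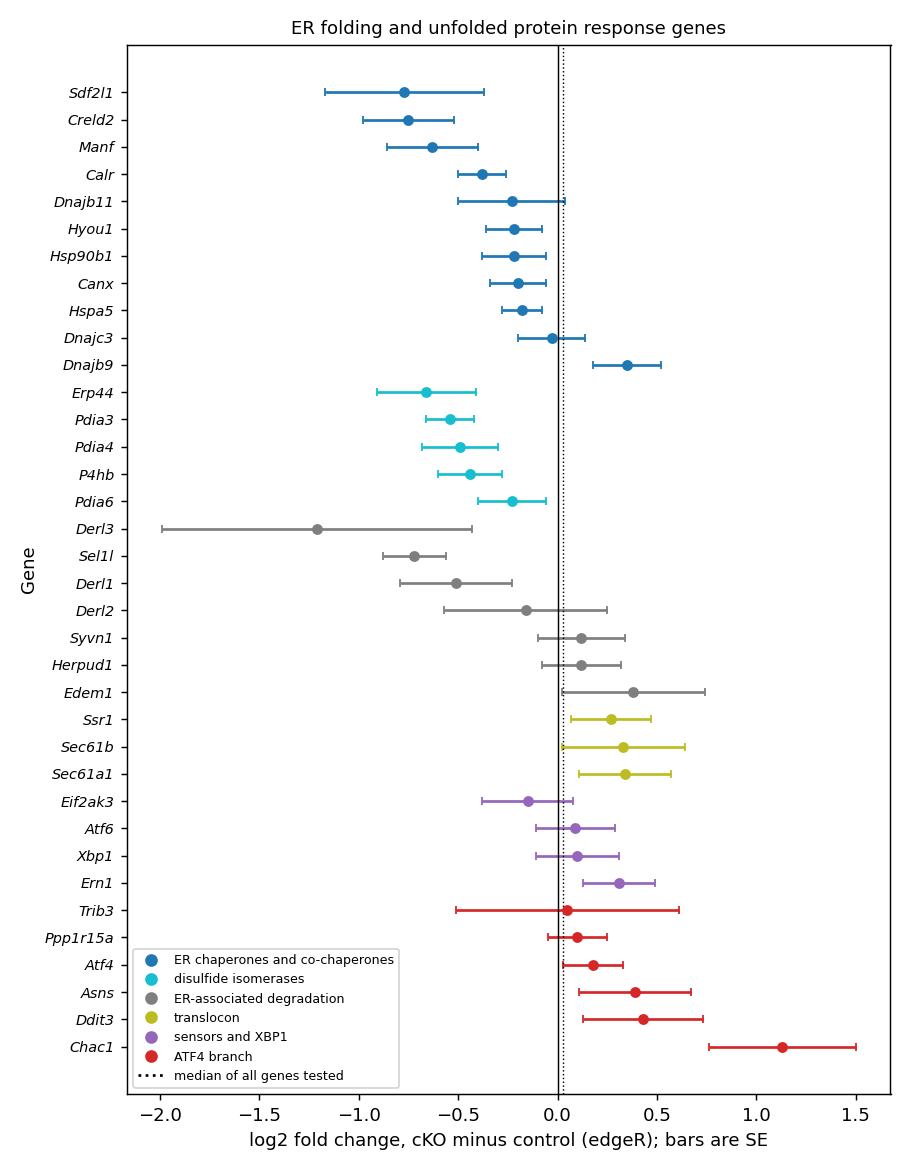
The log2 fold change of the 36 genes (x axis, cKO minus control, bars are SE), grouped by role and coloured. The dotted line is the median of all genes tested at 0.03. All 5 isomerases and 10 of 11 chaperones lie left of zero, and all 3 translocon and 6 ATF4 branch genes right of it.

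Calr and Hspa5 had the highest levels of all members, and both had negative differences. Per kilobase of exon, Calr (405 CPM per kb, mean of 4 libraries) and Hspa5 (400) stood above Pdia3 (311) and Hsp90b1 (213), while other chaperones ranked as low as 27 of 36 (Dnajb11). The order of the first 2 differed between groups, with Calr at 459 and Hspa5 at 424 CPM per kb in control and 352 and 376 in cKO libraries. Hspa5, the luminal HSP70 that is the classical readout of ER stress (ENSMUSG00000026864.13, mm10 chromosome 2, 34771970 to 34777547), counted 1767 and 1819 CPM in control and 1597 and 1579 in cKO libraries. Both cKO libraries lay below both controls, and the log2 difference between the groups was -0.18 (SE 0.10, edgeR adjusted p = 0.851). Calr, the soluble lectin chaperone calreticulin (ENSMUSG00000003814.8, chromosome 8, 84841850 to 84846934), counted 1375 and 1266 CPM in control and 998 and 1028 in cKO libraries. The cKO libraries were again the lower ones, at 76.7% of the control mean (log2 difference -0.38, SE 0.12, edgeR adjusted p = 0.603).

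Smaller cofactors of the ER lumen had the widest differences among the chaperones. Creld2, an ER stress-inducible protein with isomerase activity (ENSMUSG00000023272.4, chromosome 15, 88819646 to 88826683), counted 110 and 89.2 CPM in control and 53.3 and 65.1 in cKO libraries. That is 59.4% of the control mean with no overlap (log2 difference -0.75, SE 0.23, edgeR adjusted p = 0.608). Manf, a secreted stress-inducible BiP cofactor (ENSMUSG00000032575.16, chromosome 9, 106838312 to 106891979), counted 139 and 176 CPM in control and 84.4 and 119 in cKO libraries, and the groups did not overlap (-0.63, SE 0.23). Sdf2l1, a partner of ER HSP40 proteins, had the most negative value of the folding genes, -0.77, with an SE of 0.40 from 51.6 and 71.9 CPM in control and 49.5 and 23.1 in cKO libraries. One cKO library of Sdf2l1 thus lay close under the lower control and the other far below.

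The remaining chaperones were nearer to 0. Hsp90b1, the HSP90 of the ER (-0.22, SE 0.16), Hyou1, a nucleotide exchange factor of BiP (-0.22, SE 0.14), and Canx, the membrane-bound lectin calnexin (-0.20, SE 0.14), differed by less than 2 SE. The HSP40 co-chaperones did not share a direction. Dnajb11 had -0.23 (SE 0.27) and Dnajc3 -0.03 (SE 0.17). Dnajb9, which recruits BiP to IRE1 and is a target of spliced XBP1, was the 1 folding gene above 0, with 162 and 150 CPM in control and 184 and 214 in cKO libraries (0.35, SE 0.17). Both cKO libraries of Dnajb9 lay above both controls.

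All 5 disulfide isomerases had both cKO libraries below both controls, against 19.3% of all genes tested. Their median log2 fold change was -0.49. Pdia3, for the oxidoreductase ERp57 that works with calnexin and calreticulin (ENSMUSG00000027248.13, chromosome 2, 121413775 to 121438687), counted 1137 and 1177 CPM in control and 808 and 787 in cKO libraries. The gap between groups was 328 CPM and the gaps within them 40.7 and 21.4 CPM (log2 difference -0.54, SE 0.12, edgeR adjusted p = 0.385). P4hb, the archetypal protein disulfide isomerase (ENSMUSG00000025130.11, chromosome 11, 120560298 to 120573253), counted 556 and 492 CPM in control and 351 and 421 in cKO libraries (-0.44, SE 0.16). Pdia4, a multi-domain isomerase, counted 233 and 228 CPM in control and 189 and 140 in cKO libraries (-0.49, SE 0.19). Erp44, which retains partly assembled proteins and oxidases in the early secretory pathway, counted 65.7 and 58.3 CPM in control and 38.4 and 39.8 in cKO libraries (-0.66, SE 0.25). Of these Pdia3 alone passed with 1 library left out, without control replicate 2 (edgeR adjusted p = 0.0447, log2 value -0.51), a fit that called 3.5% of its genes. Pdia6 had the smallest difference of the 5 (-0.23, SE 0.17).

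Folding genes with and without the ERSE overlapped in their values. The 7 with an ERSE in the window had a median log2 fold change of -0.22 (-0.75 to -0.03). The 7 with a window and no exact ERSE match, among them Dnajb11 with its ERSE-II, had one of -0.49 (-0.77 to 0.35). Pdia3, Pdia4, P4hb and Erp44, which were lower at an unadjusted p under 0.05, had no exact match, and Calr and Creld2 had one. These are values of chosen genes and were not tested.

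Genes of ER-associated degradation differed in direction. Of 7 members 4 were below 0 and 3 above, with a median of -0.16. Sel1l, the adaptor of the HRD1 ubiquitin ligase (ENSMUSG00000020964.14, chromosome 12, 91806043 to 91849157), counted 258 and 289 CPM in control and 156 and 176 in cKO libraries. This was 60.7% of the control mean with no overlap (log2 difference -0.72, SE 0.16, edgeR adjusted p = 0.394), and the adjusted p was 0.0345 by edgeR when genes of low count were kept in the test, which called 1.04% of genes. Syvn1, which codes for HRD1 itself, counted 237 and 161 CPM in control and 202 and 231 in cKO libraries (0.12, SE 0.22). Its groups overlapped, and its value was -0.13 without control replicate 2. Herpud1, a short-lived membrane partner of HRD1, counted 317 and 249 CPM in control and 265 and 348 in cKO libraries (0.12, SE 0.20), which also overlapped, and its value was -0.04 without control replicate 2 and -0.1 without cKO replicate 2. Of the derlins, which take part in retrotranslocation, Derl1 had -0.51 (SE 0.28), Derl2 -0.16 (SE 0.41) and Derl3 -1.21 (SE 0.78). Derl3 rested on 8.73 and 19.4 CPM in control and 3.41 and 8.77 in cKO libraries, and its groups overlapped. Edem1, a mannosidase-like factor, had 0.38 (SE 0.36), and its value was -0.03 without control replicate 1.

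Translocon genes stood above 0. All 3 members had positive values with a median of 0.33, against 52.4% of all genes above 0. Ssr1, a subunit of the translocon-associated TRAP complex, counted 153 and 213 CPM in control and 228 and 215 in cKO libraries (0.27, SE 0.20). Sec61a1, the pore subunit, counted 89.3 and 133 CPM in control and 141 and 140 in cKO libraries (0.34, SE 0.23). In both genes control replicate 1 was the low library, and control replicate 2 was close to the cKO libraries. Without control replicate 1 the value of Ssr1 was 0.05 and that of Sec61a1 0.07. Sec61b, a small translocon subunit, had 0.33 (SE 0.31) with overlapping groups, and 0.01 without cKO replicate 2.

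Of the 3 sensors and Xbp1, the groups overlapped for Atf6 and Xbp1 and not for Ern1 and Eif2ak3. Both cKO libraries lay above both controls for Ern1 and below them for Eif2ak3, beside 19.7% and 19.3% of all genes. Ern1, for the kinase and nuclease IRE1, counted 122 and 139 CPM in control and 174 and 149 in cKO libraries, with no overlap (0.31, SE 0.18). Xbp1, the substrate of IRE1, counted 186 and 267 CPM in control and 258 and 230 in cKO libraries (0.10, SE 0.21), and both cKO libraries lay between the controls. Atf6 had 0.09 (SE 0.20). Eif2ak3, for PERK, had -0.15 (SE 0.23), and its groups were apart by a margin of 0.19 CPM. Without control replicate 1 Xbp1 stood at -0.14 and Atf6 at -0.07.

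Chac1 had the largest positive value of all members and set the upper end of the ATF4 branch. Chac1, a glutathione-degrading enzyme induced through ATF4 and CHOP (ENSMUSG00000027313.3, chromosome 2, 119351229 to 119354381), counted 21.6 and 20.2 CPM in control and 57.2 and 33.8 in cKO libraries. The cKO mean was 218% of the control mean, and the cKO libraries differed more from each other than the controls did (log2 difference 1.13, SE 0.37, edgeR adjusted p = 0.634). Its value was 0.7 without cKO replicate 1, where 0 members were higher at an unadjusted p under 0.05, and 1.44 without cKO replicate 2. Atf4, for the transcription factor itself (ENSMUSG00000042406.8, chromosome 15, 80255184 to 80257541), counted 229 and 238 CPM in control and 270 and 259 in cKO libraries (0.18, SE 0.15). Both cKO libraries lay above both controls, by a margin of 20.9 CPM or more. Ddit3, for CHOP, counted 40.6 and 31.4 CPM in control and 41.7 and 54.9 in cKO libraries (0.43, SE 0.30), with no overlap by a margin of 1.18 CPM.

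The other members of the branch overlapped between groups. Ppp1r15a, for the GADD34 subunit that directs dephosphorylation of eIF2 alpha, counted 390 and 337 CPM in control and 383 and 397 in cKO libraries (0.10, SE 0.15). Asns, for asparagine synthetase, counted 59.9 and 69.3 CPM in control and 105 and 64.7 in cKO libraries (0.39, SE 0.28). Its positive value came from cKO replicate 1, without which it was -0.00083. Trib3, a pseudokinase induced by CHOP, counted 14.5 and 9.51 CPM in control and 12.9 and 12.1 in cKO libraries (0.05, SE 0.56), and it was -0.22 without control replicate 2.

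**Figure D4:**
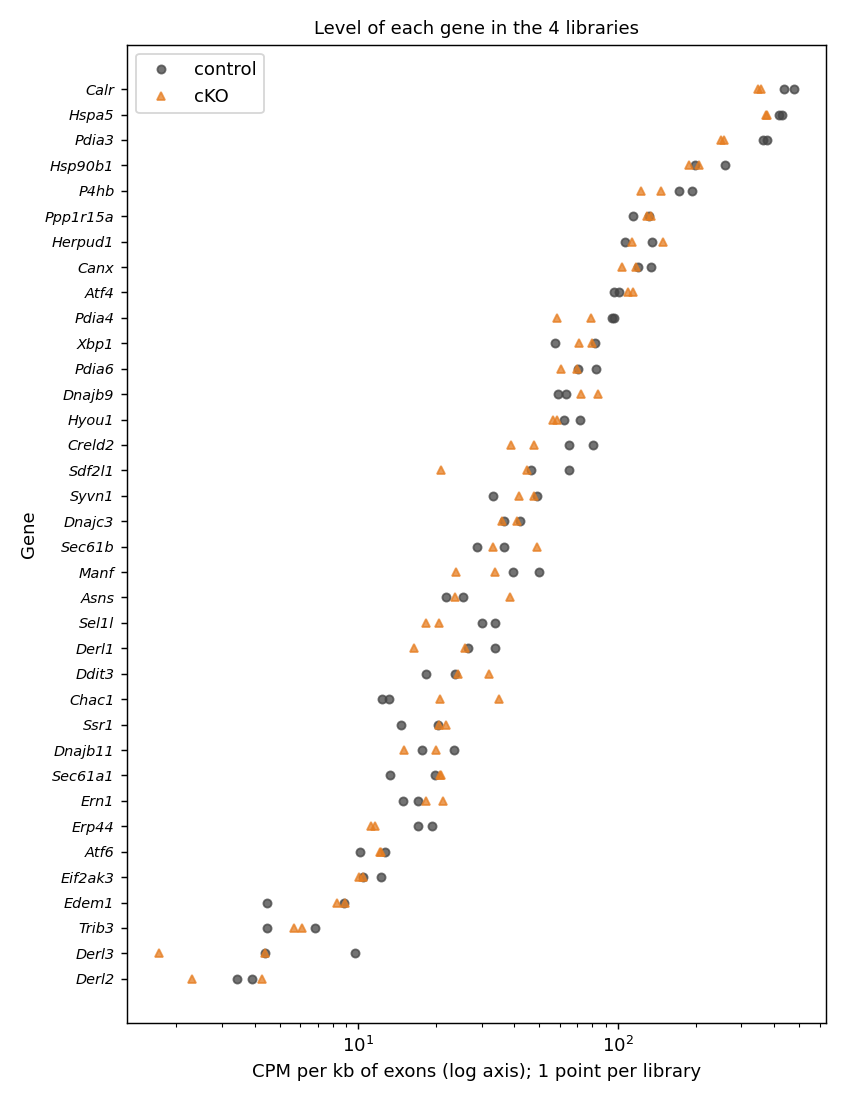
Level of each of the 36 genes per kilobase of exon (x axis, CPM per kb, log axis), with 1 point per library, controls as dark circles and cKO as orange triangles. Genes are ordered by their mean over the 4 libraries, from Derl2 (3.47) to Calr (405). Both triangles lie left of both circles for 15 genes, Calr, Pdia3 and Sel1l among them, beside 19.3% of all genes tested. Both lie right of both circles for 7, Chac1 among them, a share near the 19.7% of all genes.

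Other genes of the same pathways were read from lists that did not include the members, and edgeR called 0 of 156. At an unadjusted p under 0.05 there were 10 lower and 4 higher, beside 3.88% and 3.15% of all genes. DESeq2 called 12, limma-voom 4 and edgeR's newer method 1, where they called 5.77%, 1.48% and 0.271% of all genes. Of 35 tested genes of ER folding and disulfide formation 20 were below 0 (median -0.14), beside 47.6% of all genes, and 15 had both cKO libraries below both controls, beside 19.3%. Fkbp9, a luminal prolyl isomerase, counted 175 and 107 CPM in control and 39.0 and 42.5 in cKO libraries (log2 fold change -1.79, SE 0.28, edgeR adjusted p = 0.179). Mlec, the lectin malectin, had -0.61 (SE 0.17) and Sil1, a nucleotide exchange factor of BiP, -0.69 (SE 0.24). At an unadjusted p under 0.05 these 3 were lower and 0 were higher.

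Of 33 genes of translocation, signal peptidase and oligosaccharyltransferase 18 were below 0, and the 4 with an unadjusted p under 0.05 were lower. The 10 genes of the oligosaccharyltransferase, which attaches N-glycans to nascent chains, were set apart after their values were seen. Of these 9 were below 0 (median -0.28), and only Dad1 was above (0.06), while 9 of the 23 other genes of the list were below 0 (median 0.03). The subunit genes Rpn2 (-0.47, SE 0.15), Ddost (-0.51, SE 0.19) and Stt3a (-0.44, SE 0.16) had the smallest p of the list, and Rpn1 had -0.38 (SE 0.15). Of 22 other degradation genes 8 were below 0 (median 0.07). Ngly1, the cytosolic N-glycanase, had -1.23 (SE 0.51), Rnf139, an ER ubiquitin ligase, 1.5 (SE 0.68), and Os9, a lectin of the HRD1 complex, -0.32 (SE 0.16).

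Among other ER stress transducers 7 of 9 tested genes were below 0 (median -0.30). Creb3l2, a membrane-bound transcription factor of the ATF6 type, counted 716 and 698 CPM in control and 519 and 553 in cKO libraries (-0.40, SE 0.13). Mbtps1, the Golgi protease that makes the first cut in ATF6, had -0.44 (SE 0.20), and Wfs1, the ER membrane protein wolframin, 0.55 (SE 0.22). Of 5 genes for eIF2 kinases, their substrate and a phosphatase subunit 4 were above 0. Ppp1r15b, the constitutive counterpart of Ppp1r15a, had 0.63 (SE 0.24), Eif2ak1 -0.55 (SE 0.33) and Eif2ak4 0.13 (SE 0.27).

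The wider set of ATF4 targets was divided nearly evenly by direction. Of 39 tested targets and partners 21 were above 0 and 18 below, with a median of 0.07 beside 0.03 over all genes. In 9 both cKO libraries lay above both controls and in 6 below, beside 19.7% and 19.3% of all genes. Slc7a5, the large neutral amino acid transporter, counted 87.3 and 108 CPM in control and 152 and 168 in cKO libraries (0.71, SE 0.20, edgeR adjusted p = 0.555). It was the 1 gene of the list with an unadjusted p under 0.05. Vegfa had 0.33 (SE 0.15) and Shmt2, of mitochondrial serine metabolism, 0.49 (SE 0.24). Of 13 cytosolic heat shock genes 6 were above 0 (median -0.05), with Dnajb1 at -0.64 (SE 0.15), Hspa8 at 0.29 (SE 0.09) and Hsp90aa1 at -0.16 (SE 0.12).

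**Figure D5:**
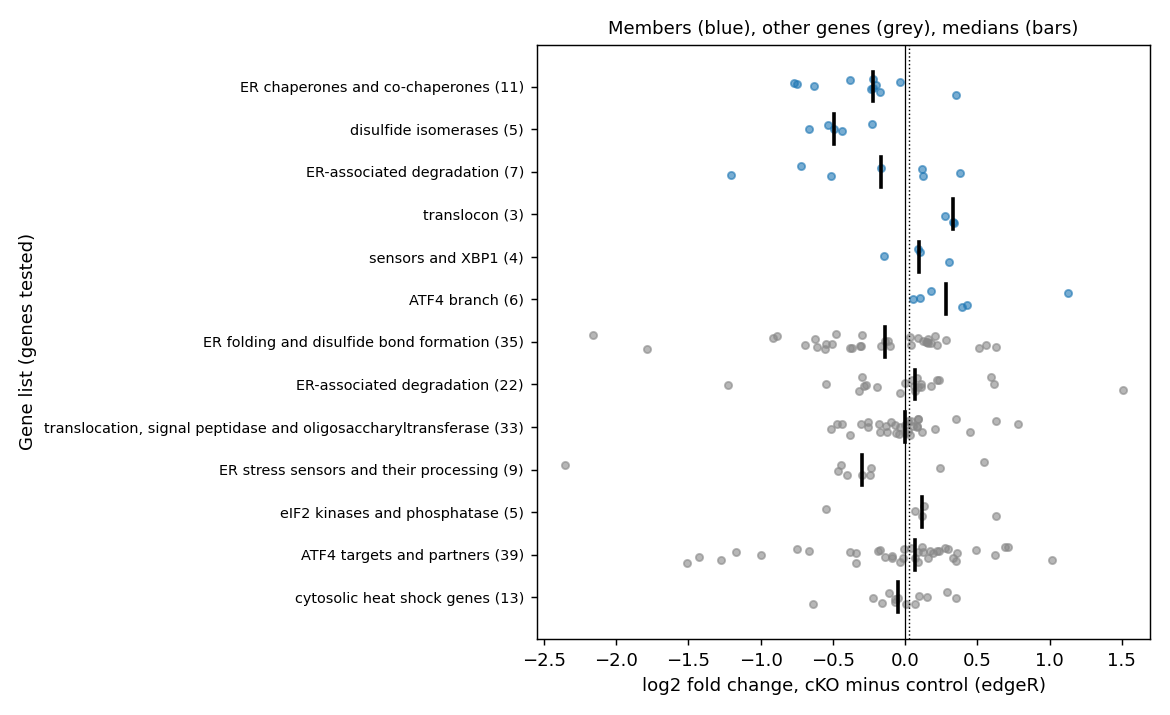
The log2 fold change of each tested gene (x axis, cKO minus control) by list, with members in blue, other genes of the pathway in grey, medians as vertical bars and the number of genes in brackets. The dotted line is the median of all genes tested at 0.03. The ATF4 branch members lie right of zero, while the 39 other ATF4 targets have a median of 0.07.

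Markers of other cells and mitochondrial transcripts differed between the same libraries. The 6 genes taken as lactotrope markers were Prl, Edil3, Gal, Angpt1, Esr1 and Drd2, and 5 of them had positive values. The 6 summed to 679 and 995 CPM in control and 1633 and 1679 in cKO libraries. Mitochondrially encoded transcripts, 13 of 13 with positive values, summed to 51846 and 60980 CPM in control and 75778 and 90221 in cKO libraries. The 4 somatotrope markers summed to 1147 and 2404 CPM in control and 2187 and 418 in cKO libraries, so cKO replicate 2 was the low one. The part of these transcripts, and of the gonadotrope and corticotrope markers given above, in the values of the folding genes and the ATF4 branch was not tested. With mitochondrial genes left out the median of the folding genes was -0.32 and that of the ATF4 branch 0.28. Plasma cells express much Derl3 and other ER genes. The 8 plasma and B cell markers summed to 27.7 and 41.1 CPM in control and 31.2 and 15.8 in cKO libraries. Of these, 3 (Jchain, Igkc and Tnfrsf17) had no count in any library, and the 3 that could be tested had overlapping groups. Their part was not tested either.

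Some members share sequence with a neighbour, and whether the counting used strand is not stated in the labels or the table. Exons of Manf overlap those of Dcaf1, Rbm15b and 4930524O07Rik over 4.1%, 0.4% and 4.7% of Manf's exonic bases. These neighbours had 4015, 5340 and 87 counts over all libraries, against 8645.5 for Manf. Ddit3 (2729 counts) overlaps Mars (3482) over 4.0%, and Derl2 (1821) overlaps Mis12 (1485) over 2.9%. Hsp90b1 shares 10.3% of its exonic bases with the opposite-strand pseudogene 1810014B01Rik, which had 223.5 counts over all libraries against 57163 for Hsp90b1. At least 1 library's count was not a whole number for 7 members, so some of their reads were counted in part. Of the members just named, Manf was among the 7, and Hsp90b1, Ddit3 and Derl2 were not. How the fractions arose is not stated.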

How the data were processed

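The deposited table holds estimated counts per gene, which the authors made on mm10 (STAR 2.5.1b, then featureCounts 1.5.0-p1), per the submitters' processing notes. Which annotation release was used and the handling of reads with several matches are not said there. Of the values above 0, 13.4% were not whole numbers. Counts were rounded, and rows were named from GENCODE M21 on the same build (54495 of 54532). Genes were kept with filterByExpr (minimum count 10, minimum total 15), scaled with TMM factors and tested two-sided with the quasi-likelihood F-test of edgeR 4.0.16 (R 4.3.3), in a model with the group alone, and p was adjusted by Benjamini-Hochberg over 17349 genes. The SE was the log2 fold change divided by the square root of F. Gene-centred log2 CPM used a prior of 0.5 CPM. Alternatives included limma 3.58.1 and DESeq2 1.42.0. As no label ties each library to its own animals, a p-value here reflects how far these libraries differ, and part of that may be technical. Replicate numbers 1 and 2 are not said to pair the libraries. The deviations of same-numbered libraries from their group means had a correlation of -3.47e-05 across genes. This value alone cannot show whether the libraries were paired.

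Members, roles, lists and tests were chosen with earlier results of these data known. Values in every library were given for members with an unadjusted p under 0.05 and for the 2 of each role with the highest mean CPM, plus some others chosen after their values were seen, and each other list contributed its 3 genes of smallest p. Counts of members by side were added after seeing the data.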

Additional observations from a re-analysis of the deposited data

How the results depend on the processing

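The 36 members kept their direction in 529 of 540 fits of a member under an alternative, and the 11 that turned came from leaving out 1 library, where the values ranged from -0.14 to 0.07 (Dnajc3), -0.13 to 0.42 (Syvn1), -0.1 to 0.3 (Herpud1), -0.03 to 0.96 (Edem1), -0.68 to 0.21 (Derl2), -0.14 to 0.4 (Xbp1), -0.07 to 0.26 (Atf6), -0.22 to 0.38 (Trib3) and -0.00083 to 0.69 (Asns). With 1 library left out, genes called over the whole table numbered 66 to 681, members called 0 to 1, members lower at an unadjusted p under 0.05 from 5 to 9 and higher from 0 to 4; the lone library is then assumed to vary like the other group. The median of the folding genes was -0.38 to -0.29, that of the ATF4 branch 0.14 to 0.33 and their difference 0.46 to 0.71, beside 0.59 with all libraries. Genes called were 253 and members called 1 with no filter, and 3 and 0 with 1 CPM in 2 libraries. They were 963 and 7 with DESeq2, 256 and 3 with limma-voom, and 47 and 0 with edgeR's newer method. At an unadjusted p under 0.05, 10 members were lower and 3 higher with DESeq2, and 12 lower and 2 higher with limma-voom. The share of all genes at that unadjusted p is given above for the main fit only. The counts from other fits have no such share beside them. The ATF4 branch median was 0.18 with Eif2ak3 counted in, and the chaperones without the isomerases had -0.22. The cause was not tested. The replicate block called 7 genes and 0 members, with medians of -0.31 and 0.27. Scaling by DESeq2 size factors, upper-quartile factors or library size alone gave 0 members called and medians of -0.35 to -0.3 and 0.25 to 0.29. Depth limits the low members most: Derl3 had 96 and Trib3 160 counts in control replicate 1, the shallowest library.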
